A study of Mus musculus with 2 samples.

Results

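Genes encoding the proteasome were described in messenger RNA of mouse embryonic stem cells (mESCs) of the iXist-ChrX-Dom line. Members were the rows of the count table whose symbol begins with Psma, Psmb, Psmc, Psmd, Psme, Psmf or Psmg followed by a digit, with pseudogene names left out, which gave 50 of 22556 genes. The line is female, from a 129S (Dom) by castaneus cross, and carries a TetOn promoter in place of the endogenous Xist promoter on its Dom allele. Cells were grown with LIF on inactivated fibroblast feeders that were removed by pre-plating, and they were untreated, so Xist had not been switched on (0 h). The series holds this 1 group with 2 replicates, and no source says whether these came from separate cultures. The labels call the cells "mESC to NPC", a course towards neural precursor cells, and the study used the data to rank genes by expression before silencing.

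The proteasome is the main protease of the cytoplasm and nucleus and degrades proteins tagged with ubiquitin. Its 20S core is a barrel of outer rings of alpha subunits and inner rings of beta subunits, and some of the beta subunits cut peptide bonds. The 19S cap recognises the ubiquitin tag, unfolds the substrate with a ring of ATPases and feeds it into the barrel, and core and cap together form the 26S particle. Within the core, and within the cap, each subunit is present in equal number. Immune cells and cells exposed to interferon exchange the cutting subunits for the immunoproteasome subunits Psmb8, Psmb9 and Psmb10.

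Replicate 1 held 23716499 fragments counted in genes and replicate 2 held 20275749. A gene seen at 0 counts may, by counting error alone, have an expected count of up to 3, which is 0.126 and 0.148 CPM (counts per 1000000). This value was used as a floor. Of 10 ES cell markers, 9 had at least 10 counts in each replicate, with Nanog at 798 and 749 TPM (transcripts per 1000000) but Pou5f1 at 110 and 17.2 TPM and Dppa5a at 626 and 79.6 TPM. Of 10 fibroblast markers this held for 1, the list summed to 3.84 and 1.73 CPM, and Lum was at 0. Of 6 neural precursor markers it held for 2, Nes and Pax6, with a summed level of 9.66 and 7.84 CPM and with Olig2 among those at 0. Sox1 was also listed at 0, but 100% of its exonic bases lie inside the same-strand gene Gm5607, so its level cannot be read. Of 6 immune cell markers it held for 0, with a sum of 0.801 and 0.444 CPM and with Ptprc at 0, as was Lyz2, which shares sequence with another locus.

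Nearly all proteasome genes were measured, and as a class they stood high among expressed genes. At least 10 counts in each replicate were found for 44 of the 50 members, which lay on 15 autosomes and, for 1 gene, on the X chromosome. Together the members made up 0.655% and 0.542% of all fragments counted in replicates 1 and 2. The 31 constitutive 26S subunits that the name rule finds, 14 of the core and 17 of the cap, had a median of 104 TPM, against 11.6 TPM over the 14536 genes with at least 10 counts in total. The cap also holds Shfm1 and Adrm1, whose symbols do not meet the rule and which are described with the partner genes. TPM was computed here with the exonic length of each gene. Of the 31 subunits, 22 were at or above the 75th percentile of those genes and 13 at or above the 90th percentile.

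**Figure D1:**
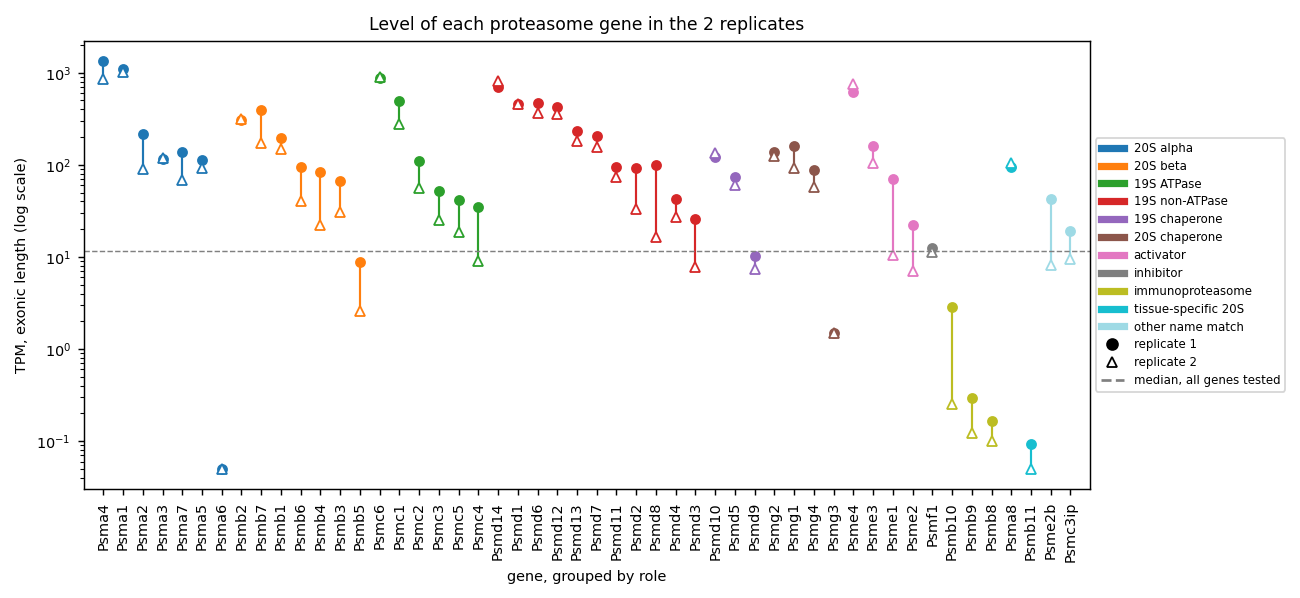
Level of each of the 50 genes in replicate 1 (filled circles) and replicate 2 (open triangles) in TPM with exonic length, on a log axis, with genes grouped by role and ordered by mean level. Levels of 0 are drawn at the bottom of the axis, and the dashed line is the median of all genes tested, 11.6 TPM. Most core and cap subunits lie above the line, and the immunoproteasome genes lie below it.

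The promoters of the genes were searched for 5 short motifs in RefSeq windows (GRCm38.p6) from 250 bases before to 50 bases after the start, on both strands. Windows were matched for 42 of the 50 members, 25 of them 26S subunits. The core of sites bound by ETS factors, CCGGAAG, occurred in 10 of these 25 windows (40%), in 18.3% of the windows of all genes tested and in 8.86% of all 32851 windows. Over the 42 members it occurred in 15 windows (35.7%). Printed below are the matches in front of 6 subunits of the cap and in front of the activator gene Psme4, since this was the motif whose share in the 26S subunits differed most from that of other genes. Capitals mark the motif, which reads CTTCCGG where it lies on the opposite strand. The printed matches lie between 10 and 118 bases before the RefSeq start. Not printed for the 26S subunits are those of Psmd11 (4 bases), Psma6 (125 bases), a further start of Psmc2 (17 bases), a match in 1 other subunit that runs past the start, and Psmc1, whose RefSeq start differs from that of the count table. Matches outside the 26S particle that are not printed include those of Psme3 (100 bases), Psmg1 (62 bases) and Psmc3ip (70, 52 and 0 bases).
Psmc6, chr14:45329714-45329740 (+): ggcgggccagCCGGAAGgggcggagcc
Psmc2, chr5:21785181-21785207 (+): ccagtgagcaCTTCCGGgatggggctc
Psmd2, chr16:20651616-20651642 (+): ccgcagggcgCTTCCGGtctggaggac
Psmd4, chr3:95042723-95042749 (-): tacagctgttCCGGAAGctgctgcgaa
Psmd6, chr14:14120974-14121000 (-): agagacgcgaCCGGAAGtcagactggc
Psmd12, chr11:107479501-107479527 (+): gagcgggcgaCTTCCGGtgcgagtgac
Psme4, chr11:30771712-30771738 (+): tggccccgccCCGGAAGtgacttgagg

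The antioxidant response element, TGACNNNGC, is the motif bound by the factors Nfe2l1 and Nfe2l2, and Nfe2l1 is known to raise proteasome genes when the proteasome is inhibited. It occurred in 4 of the 25 windows of 26S subunits (16%), close to its share of 16.9% over genes tested. Its matches in front of Psmc6, the most expressed ATPase gene, and Psmb5, the least expressed core gene with counts, are shown with the motif in capitals, which is on the opposite strand in Psmc6.
Psmc6, chr14:45329587-45329615 (+): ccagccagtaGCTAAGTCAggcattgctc
Psmb5, chr14:54618024-54618052 (-): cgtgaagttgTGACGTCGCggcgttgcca
The CCAAT box was found in 40% of the 26S windows and 43.0% of the windows of genes tested. The NRF1 motif, CGCATGCG, was found in 1 of the 25 windows (4.13% of genes tested) and TATAAA in 3 (8.94% of genes tested). A match here describes the letters in these windows, and binding was not measured.

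Among the alpha subunits of the core, Psma4 and Psma1 stood far above the others. Psma4 was at 1336 and 846 TPM, where the first value of each such pair is replicate 1 and the other replicate 2, and Psma1 was at 1110 and 1029 TPM. Levels of Psma4 differed between the replicates by a log2 ratio (replicate 2 over replicate 1) of -0.52, whereas Psma1 differed by 0.03. Psma2 (215 and 90.1 TPM), Psma3 (115 and 117 TPM), Psma7 (139 and 68.0 TPM) and Psma5 (112 and 93.4 TPM) followed, with means between 103 and 152 TPM. The order among Psma3, Psma5 and Psma7 was within the spread of Psma7 between replicates, whose mean was 104 ± 50.5 TPM (SD, n = 2). The median of the 7 alpha subunits was 116 TPM.

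Psma6 was listed with 0 counts in both replicates, which cannot be read as its level. All of its exonic bases (chr12:55398824-55418459, + strand) lie inside the span given to Mir1198 on the same strand, and in the counting mode of the authors a fragment that lies in 2 genes of the same strand goes to neither unless multiple overlaps are allowed. Mir1198 itself had 11 and 8 counts. Values over the 26S subunits are given with it at 0 unless said otherwise.

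Among the beta subunits Psmb2 was at 304 and 318 TPM and Psmb7, which carries the trypsin-like activity, at 393 and 173 TPM. Psmb7 was the higher of them in replicate 1 and Psmb2 in replicate 2, and Psmb1, which lacks an active site, was at 196 and 149 TPM. With the deposited span length, introns included, the means of Psmb2 and Psmb7 were 43.5 and 30.3 TPM, below Psmb1 at 136 TPM. Psmb6, with the caspase-like activity, had 570 and 193 counts and a mean of 67.5 ± 38.9 TPM (SD, n = 2). Psmb4 (83.3 and 22.1 TPM) and Psmb3 (67.0 and 31.1 TPM) were below it in both replicates and changed places with each other. Psmb5, which carries the chymotrypsin-like activity, was lowest, with 59 and 14 counts, or 8.73 and 2.58 TPM. Its level lay below that of each other beta subunit in both replicates. For Psmb5, 50.0% of the 50-base words of its transcript also occur in the pseudogenes Gm3375 and Psmb5-ps, and the part of this in its low count was not tested.

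Sequence shared with another locus was found for 12 members, and for these the level may miss reads that match several places. Among the core subunits the share of such words was 22.0% for Psma3, 25.6% for Psma4, 54.5% for Psma5 and 55.8% for Psmb3. In the cap it was 17.6% for Psmc1, and up to 24.7% for Psmd2 and 18.9% for Psmd11. Psma6 was counted among the 12 for its overlap, and Psme1, Psme2 and Psme2b are described with the activators. Of the 31 subunits of the 26S particle, 22 were free of such sharing, and their median was 162 TPM.

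The 6 ATPases of the cap form 1 ring but spanned a wide range. Psmc6 was at 867 and 897 TPM and Psmc1 at 498 and 281 TPM. Psmc2 was at 110 and 56.6 TPM. Psmc3 (52.5 and 25.2 TPM), Psmc5 (41.1 and 18.9 TPM) and Psmc4 (34.6 and 9.07 TPM) were lowest and stood in this order in both replicates, with an SD of 15.8 to 19.3 TPM (n = 2), since all 3 were lower in replicate 2. In both replicates Psmc6 was above the other 5 ATPases, and on the log2 scale its replicates differed by less (0.18) than those of the other 5 (-0.69 to -1.79). The median was 61.2 TPM.

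Among the 11 other cap subunits, Psmd14, the enzyme that cuts ubiquitin chains from the substrate, was highest on exonic length, at 698 and 816 TPM. With span length the mean of Psmd14 was 68.7 TPM, below that of Psmd6 at 343 TPM. Psmd1, a large scaffold of the base, was at 452 and 454 TPM. The lid subunits Psmd6 (469 and 362 TPM) and Psmd12 (421 and 360 TPM) were close to it. Psmd13 was at 235 and 181 TPM and Psmd7, which pairs with Psmd14 in the lid, at 205 and 157 TPM. Psmd11 was at 93.5 and 74.6 TPM.

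The remaining cap subunits were lower and differed more between replicates. Psmd2, which docks ubiquitin-like proteins, was at 93.1 and 32.9 TPM. Psmd8 was at 99.7 and 16.3 TPM, with 1652 and 217 counts. The ubiquitin receptor Psmd4 was at 42.5 and 27.4 TPM, and Psmd3 was lowest at 25.9 and 7.85 TPM. The median of the 11 subunits was 181 TPM, and that of all 17 cap subunits was 84.1 TPM, against 110 TPM for the 14 core subunits. The log2 ratio of the core to the cap median, 0.39, turned to -0.34 on counts not divided by length, so no order of core and cap was established.

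Levels of subunits that occur in equal number in the particle thus differed widely per unit of exonic length. The highest exceeded the lowest by 193-fold without Psma6, and by 63.4-fold over the 22 subunits without shared sequence, on the mean of the replicates. These folds were 153 and 42.9 in replicate 1 alone and 399.5 and 131 in replicate 2 alone. Of the 31, 21 were within 4-fold of their median. The rank order was alike in the replicates, with a Spearman's rho of 0.96 across the 30 subunits with counts (0.98 across 14387 genes), given as a description because genes of 1 library share its depth and preparation.

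GC content moved with these levels. Across the 30 subunits with counts, level and the GC content of the longest coding transcript had a rho of -0.80, and across the 22 without shared sequence -0.82. Across 14387 genes rho was -0.40. Psmc6, at 37.0% GC, was among the 3 highest subunits, and Psmb5 and Psmd3, at 56.6% and 58.3%, were the lowest with counts. Psma2 and Psma3, at 39.4% and 40.8% GC, had means of 152 and 116 TPM and departed from this order. Across the same 30 subunits, exonic length and level had a rho of 0.09, and the transcribed span, over which fragments were counted, and level a rho of 0.48 (0.60 without shared sequence, 0.08 across 14387 genes). The part of GC content and of span in the levels was not tested.

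**Figure D2:**
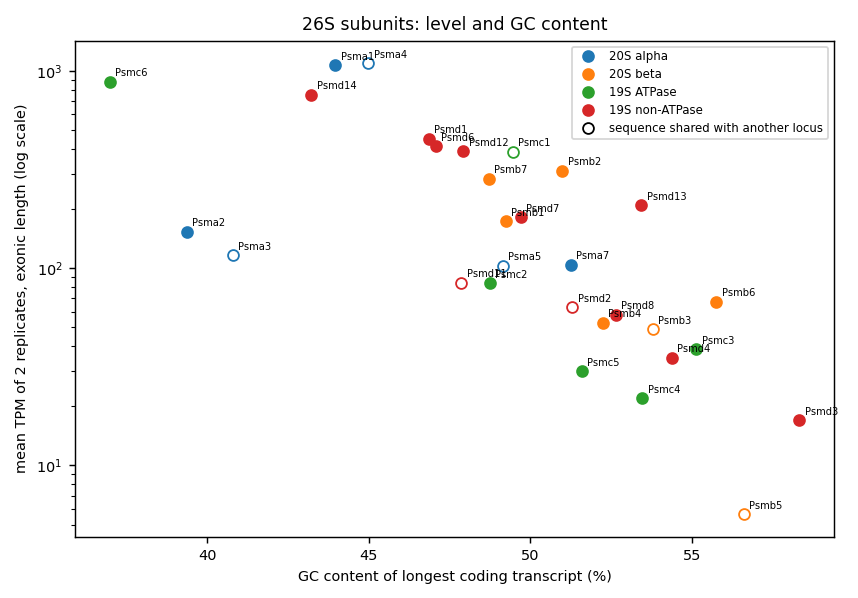
Mean level of the 30 subunits of the 26S particle with counts (TPM with exonic length, mean of 2 replicates, log axis) against the GC content of the longest coding transcript in percent, coloured by role. Open circles share sequence with another locus. Level falls from Psmc6 at 37.0% GC to Psmd3 at 58.3% GC, with Spearman's rho of -0.80 over the 30 genes.

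The study sorted X-linked genes into groups by initial expression, and 1 member is X-linked. Psmd10 (X:140948424-140956711, - strand) encodes gankyrin, a chaperone that holds an ATPase during assembly of the cap. It was at 123 and 135 TPM, a mean of 129 ± 8.80 TPM (SD, n = 2). Among the 530 X-linked genes with a mean of at least 1 TPM it ranked 132, in the upper part when the genes were cut into equal low, medium and high groups. It ranked 130 of 540 in replicate 1 and 132 of 523 in replicate 2, and stayed in the high group in each. The study's silencing analysis kept only X-linked genes with enough fragments assigned to an allele, a filter not applied here. The group of Psmd10 given here is thus not the study's own. The other cap chaperones were lower, Psmd5 at 74.0 and 60.0 TPM and Psmd9 at 10.3 and 7.45 TPM.

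Chaperones of core assembly work as the pairs Psmg1 with Psmg2 and Psmg3 with Psmg4. Psmg1 was at 159 and 93.3 TPM and Psmg2 at 137 and 126 TPM, so that these partners differed by less than the spread of Psmg1. Psmg4 was at 88.9 and 58.1 TPM. Psmg3, its partner, had 10 and 8 counts, which put it at percentile 20.1 of the genes tested by TPM. In both replicates Psmg3 was thus far below Psmg4.

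Activators bind the ends of the core in place of the cap. Psme4, a nuclear activator also known as PA200, had the most counts of all members, 30390 and 29961, which was 19.6% and 27.2% of the counts of the 50 genes. On the TPM scale with exonic length it was at 623 and 763 TPM, and 4 of the 50 genes, Psma4, Psma1, Psmc6 and Psmd14, had a higher mean. Psme3, the nuclear activator PA28 gamma, was at 159 and 103 TPM. With span length the mean of Psme3 was 248 TPM and that of Psme4 was 216 TPM.

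Psme1 and Psme2 form the interferon-inducible activator PA28, and both were lower. Psme1 had 589 and 70 counts, or 70.4 and 10.4 TPM, and 14.1% of its words are shared with pseudogenes. Psme2 had 165 and 41 counts, or 22.5 and 6.95 TPM. Psme2b, a single-exon gene that shares 68.7% of its words with another locus, mainly Psme2, had 271 and 41 counts, so the counts of Psme2 and Psme2b cannot be told apart. The inhibitor Psmf1 was at 12.6 and 11.2 TPM. Psmc3ip, which met the name rule but encodes a factor of meiotic recombination and no subunit, was at 19.2 and 9.48 TPM.

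The immunoproteasome genes were at or near the limit of detection. Psmb8 (chr17:34198194-34201454) had 2 and 1 counts, and Psmb9 (chr17:34182098-34187330) had 3 and 1 counts, all within the floor of 3 counts. Psmb10 (chr8:105935727-105938392) had 28 counts in replicate 1 and 2 counts in replicate 2. Set against the constitutive subunit that each replaces, Psmb9 was at 0.311% of the TPM of Psmb6 in replicate 1 (95% exact counting interval 0.0639 to 0.912%) and at 0.306% in replicate 2 (0.00770 to 1.72%). Psmb10 was at 0.723% of Psmb7 in replicate 1 (0.480 to 1.05%) and at 0.146% in replicate 2 (0.0177 to 0.529%). With span length, over which Psmb7 has a lower level, the mean of Psmb10 was at 12.8% of that of Psmb7. Psmb8 was at 1.87% of Psmb5 (0.222 to 7.07%) and at 3.94% (0.0933 to 25.9%), with intervals widened by the low count of Psmb5 itself. In both replicates each of the 3 immunoproteasome genes was below its counterpart on exonic length.

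Other genes of antigen presentation and of the interferon response were also mostly low, with a median of 2.89 TPM over 12 genes. Tap1 and Tap2, which carry peptides into the endoplasmic reticulum, had 23 and 9 and 16 and 19 counts. Isg15 was at 0 in both. B2m, the light chain of class I molecules, was the highest of the list at 138 and 136 TPM.

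Of the subunits specific to tissues, Psmb11, the thymus subunit, had 3 and 0 counts, whereas Psma8 was well measured. Psma8 replaces Psma7 in the proteasome of male germ cells. It had 1191 and 1081 counts, or 93.6 and 106 TPM, beside 139 and 68.0 TPM for Psma7. Psma8 was thus at 67.1% of Psma7 in replicate 1 (95% exact counting interval 62.0 to 72.8%) and at 155% in replicate 2 (140 to 173%), and the replicates put the genes in opposite order. No 50-base word of either transcript occurs at another locus. With the span length of the deposited table, introns included, the mean of Psma8 was 15.7 TPM and that of Psma7 104 TPM, so that Psma8 was at 15.1% of Psma7 on this scale.

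Germ cell genes were also present in these libraries. Dazl, an RNA-binding protein of germ cells, was at 121 and 189 TPM, Sycp3, of the meiotic chromosome axis, at 188 and 285 TPM, and Ddx4 at 32.4 and 36.3 TPM. Stra8, which marks entry into meiosis, was at 4.13 and 3.03 TPM.

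**Figure D3:**
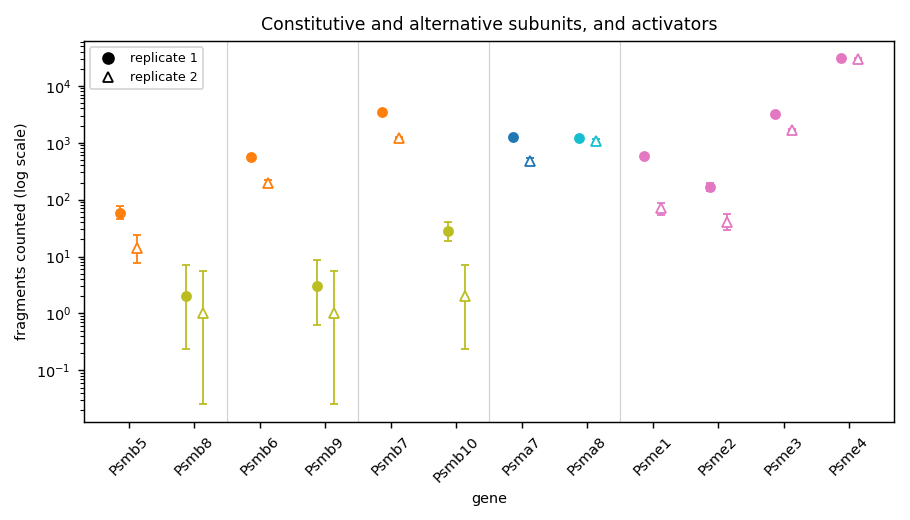
Fragments counted in replicate 1 (filled circles) and replicate 2 (open triangles) for each constitutive subunit beside its immunoproteasome or germ-cell alternative, and for the 4 activators, on a log axis. Bars are 95% exact Poisson intervals of each count, counting error only. Psmb8, Psmb9 and Psmb10 have 28 counts or fewer, while Psma8 has 1191 and 1081.

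The replicates differed beyond sampling noise for most proteasome genes, and mostly in 1 direction. Over all genes with at least 10 counts in total, a two-sided exact binomial test on counts scaled by TMM, with Benjamini-Hochberg adjustment at 0.05, called 57.7% of 14536 genes, 30.8% lower and 27% higher in replicate 2. Of the 46 members tested, 40 were called, 32 lower and 8 higher, and Psma6, Psmb8, Psmb9 and Psmb11 were not tested. Of the 30 subunits of the 26S particle tested, 28 were called, 23 lower and 5 higher. The test compares these 2 libraries and no conditions. It calls small differences where counts are high, as for Psmd12, with 8382 and 5763 counts and a log2 ratio of -0.09. The 26S subunits had a median of 104 TPM against 11.6 TPM over all genes tested, and shares called were not compared at equal counts. With library totals as the scale, all log2 ratios moved down by 0.22, and the 28 calls split into 27 lower and 1 higher. At that scale 6640 of all genes tested were called lower and 2202 higher, with a median of -0.31.

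The median log2 ratio of the 26S subunits was -0.61, against -0.09 over all genes tested, and 24 of the 30 were below that median. By role it was -0.32 for the alpha and -1.05 for the beta subunits of the core, -0.88 for the ATPases and -0.24 for the other cap subunits. With a trend on GC content taken out, as described below, these medians were -0.45, -0.61, -0.61 and -0.07. The gap between alpha and beta subunits was then smaller. Among the 26S subunits Psmd8 had the largest fall, with a log2 ratio of -2.48 (exact binomial test, adjusted p = 6.5e-184). Psmc4 was at -1.79 and Psmb4 at -1.78 (exact binomial test, adjusted p = 1.3e-28 and 4.6e-55). In the activators the range ran from Psme1, at -2.61, to Psme4, at 0.43.

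The 5 called higher in replicate 2 were Psmd14 (0.36), Psmb2 (0.20), Psmc6 (0.18), Psma3 (0.16) and Psmd1 (0.14), of which Psmd14 alone was still called higher with library totals, at 0.14. At that scale Psmc6 (-0.04) and Psmd1 (-0.08) were called lower, and Psmb2 and Psma3 were not called. Outside the 26S particle Psme4, Psma8 (0.31) and Psmd10 (0.27) were called higher, and with library totals Psme4 alone of these was still called, at 0.21, while Psma8 (0.09) and Psmd10 (0.05) were not. The members that missed the threshold were Psma1, Psma5, Psmd9, Psmg2, Psmg3 and Psmf1, with log2 ratios from -0.33 for Psmd9 to 0.14 for Psmg3, and all of these except Psmg3 were called lower with library totals. With the size factors of DESeq2, Psma1 was called higher (0.11), and Psmd5, Psmd11 and Psmd12 were no longer called lower. Among the immunoproteasome genes Psmb10 alone had enough counts in total, through its 28 counts in replicate 1, and it was not tested where at least 10 counts were asked of each replicate, so its log2 ratio of -3.06 is given as a description.

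**Figure D4:**
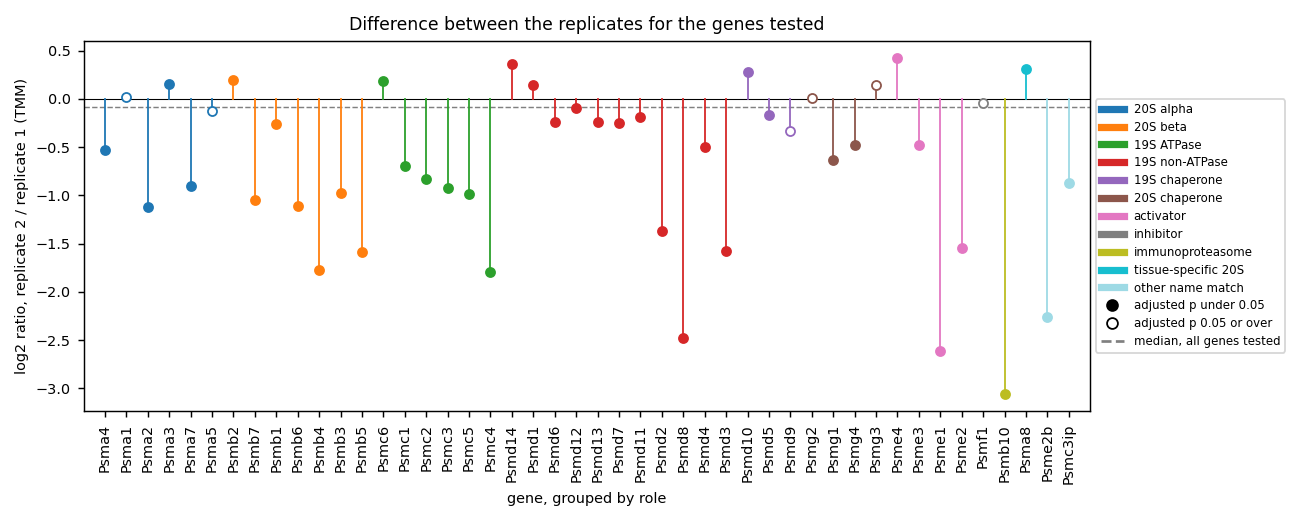
Log2 ratio of replicate 2 over replicate 1 (CPM scaled by TMM, after adding 0.5 counts) for the 46 genes tested, grouped by role. Filled circles passed the exact binomial test at an adjusted p of 0.05, open circles did not, and the dashed line is the median of all genes tested, -0.09. Most genes point down. Psmb10, with 28 and 2 counts, entered through replicate 1 alone.

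GC content moved with the replicate ratio too, across all 14387 genes (rho -0.64) and across the 30 subunits (rho -0.64). For the transcribed span and the ratio, rho was 0.35 and 0.65. After a trend on GC content was taken out, 26 of the 30 subunits were called, 22 lower and 4 higher, and their median was -0.49. Over all genes 44.6% of 14387 were then called, 3103 lower and 3319 higher, with a median of -0.01. Psma2, at 39.4% GC, departed from the trend. Its ratio of -1.12 became -1.62 once the trend was removed, and that of Psma4 went from -0.52 to -0.69. Psmd13 turned from -0.24 to 0.16 and was then called higher. Psma1 was called lower (-0.21), and Psmd4, Psmd7, Psmd12, Psmg4, Psmd10 and Psma8 were no longer called. Ratios above 0 turned below it for Psmc6 (from 0.18 to -0.41), Psma3 (to -0.27), Psmd10 (to -0.07) and Psma8 (to -0.01), and stayed above it for Psmd14 (0.08), Psmd1 (0.11), Psmb2 (0.46) and Psme4 (0.19). Of the 10 ES cell markers 6 were also called lower and 3 higher in replicate 2 (8 and 1 with library totals, 6 and 2 with the GC trend removed), with log2 ratios of -2.54 for Pou5f1 and -2.84 for Dppa5a. A difference of the cells and one of the libraries cannot be told apart here.

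Factors that work with the proteasome were split in direction. Of 18 listed partners 15 were in the table, and all 15 were called, 10 higher and 5 lower in replicate 2, beside 57.7% of all genes tested (27% higher, 30.8% lower). The split was 6 and 5 with library totals and 6 and 7 with the GC trend removed. The deubiquitinating enzymes of the cap, Usp14 (358 and 469 TPM) and Uchl5 (419 and 492 TPM), were called higher, with log2 ratios of 0.52 and 0.37, which became 0.01 and -0.14 with the GC trend removed. Rad23b, a shuttle for ubiquitin-tagged proteins, was at 694 and 881 TPM (0.48). Those called lower included Ubqln4 and 3 genes needed to build the particle or present in it. These 3 were Pomp, which matures the core, at 47.4 and 18.7 TPM (-1.21), Shfm1, the smallest cap subunit, at 209 and 127 TPM (-0.58), and Adrm1, a ubiquitin receptor that shares sequence with another locus, at 8.14 and 2.16 TPM (-1.76). With the GC trend removed their ratios were -1.07, -1.17 and -1.21.

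Regulators of proteasome genes had a median of 17.6 TPM over 8 genes, above the 11.6 TPM of all genes tested, with means from 2.72 to 145 TPM. Of them 3 were called higher and 2 lower (2 and 4 with library totals, 3 and 1 with the GC trend removed). These 5 calls among 8 genes, 62.5%, were near the 57.7% of all genes tested. Nfe2l1 was at 22.4 and 10.7 TPM (log2 ratio -0.93) and the related Nfe2l2 at 140 and 151 TPM (0.24). Ngly1, which strips sugars from Nfe2l1, was at 37.3 and 47.2 TPM (0.48). With the GC trend removed the ratio was -0.48 for Nfe2l1, 0.21 for Nfe2l2 and 0.15 for Ngly1. Ddi2, the protease that cleaves Nfe2l1, was at 9.66 and 8.21 TPM, and Vcp, which pulls it from the membrane, at 73.1 and 65.6 TPM, and neither passed the test.

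Among genes that make or activate ubiquitin, Rps27a, which fuses it to a ribosomal protein, was at 307 and 306 TPM. Ubb, at 27.9 and 28.9 TPM, did not pass the test. Both share sequence with other loci, as do Vcp and, by an overlapping gene, Ddi2. Uba1, the X-linked enzyme that activates ubiquitin, was at 109 and 38.2 TPM (-1.37).

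Other large complexes gave a scale for these values. The 8 subunits of the chaperonin TRiC had a median of 1006 TPM, between 204 and 1841, with a median log2 ratio of -0.38 and 6 called lower and 2 higher (7 and 0 with library totals, 6 and 2 with the GC trend removed). Over all genes tested 57.7% were called, and 60.8% with library totals. The 9 subunits of the COP9 signalosome, which is built like the lid of the cap, had a median of 49.5 TPM, between 1.40 (Gps1, which shares sequence with another locus) and 919, with a median log2 ratio of -0.13 and 5 called lower and 2 higher (7 and 1 with library totals, 4 and 0 with the GC trend removed, where the median was -0.02). Those 4 of 9 genes were near the 44.6% of all genes called with the GC trend removed. Unequal levels among subunits of 1 complex were thus also found outside the proteasome.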

How the data were processed

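Polyadenylated RNA was isolated with oligo-dT beads, and stranded libraries were sequenced from 2 replicates of 1 group. The deposited values are counts, per the file headers. The authors counted whole fragments with featureCounts 1.5.2, as the table's header names it, in reverse-stranded mode over transcript spans, introns included, on a non-redundant mm10 annotation. The submitters' processing notes also name Bowtie2 2.3.2 and STAR 2.4.2a. For its libraries of chromatin-associated RNA, the study used Bowtie2 to discard ribosomal RNA reads and STAR to align the rest. Whether the same was done for these mRNA libraries is not stated. Each column was matched to its sample by replicate number.

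Here TPM was computed from the counts with the exonic length (exon union of GENCODE M21 basic, GRCm38, matched for 98.1% of genes) and averaged over replicates. No group contrast exists. For each gene with at least 10 counts in total the 2 counts were compared by a two-sided exact binomial test (scipy 1.17.1) against library sizes scaled by TMM (edgeR 4.0.16), with Benjamini-Hochberg adjustment over 14536 genes. Log2 ratios used CPM after adding 0.5 counts. The GC trend was a degree 3 polynomial of the log2 ratio, from autosomal genes counted at least 50 times in both libraries. A member was called shared when at least 10% of the 50-base words of its longest coding transcript occur at another locus, or when at least 10% of its exonic bases overlap a same-strand gene. The scripts were tested on simulated data. Members are named by particle, highest, lowest and largest replicate difference first. Results for some listed genes are not reported here. The members and lists were chosen with earlier results of these data known. Counting intervals are exact Poisson or binomial at 95% and cover counting error only.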

Additional observations from a re-analysis of the deposited data

How the results depend on the processing

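Over 13 results and 60 alternatives, 37 values stayed within the spread or 1.5-fold limit, 22 moved and 1 turned its sign. With library totals 1 subunit of the 26S particle was higher in replicate 2 instead of 5, and the median log2 ratio was -0.83 instead of -0.61. With the GC trend removed this median was -0.49. The number of 26S subunits called stayed between 26 and 28 under each scaling and filter tried. The log2 ratio of the core to the cap median, 0.39, was 0.21 with span length, -0.34 with no length, 0.30 without members with shared reads and, chosen after seeing the data, 0.47 without Psma6. The spread of the 26S subunits, an SD of 2.61 of log2(TPM + 0.1), was 2.41 with span length, 1.78 without members with shared reads, 2.21 with a pseudocount of 1 TPM and 1.88 without Psma6. The rank of Psmd10, 132, was 112 with span length.

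The log2 ratio of Psmb8 to Psmb5, -5.41, was -4.30 with span length and -4.57 with no length. That of Psmb9 to Psmb6, -8.34, was -8.64 and -7.58. That of Psmb10 to Psmb7, -7.52, was -2.97 with span length. With 1 replicate left out at a time, the median of the core subunits ran from 91.8 to 127 TPM and that of the cap subunits from 74.6 to 110 TPM, their log2 ratio from 0.21 to 0.30, and the spread from 2.54 to 2.81. The Psmb8 ratio then ran from -5.74 to -4.66, the Psmb9 ratio from -8.35 to -8.33, the Psmb10 ratio from -9.42 to -7.11 and the rank of Psmd10 from 130 to 132. The binomial test needs both libraries and has no value with 1 left out. No paired analysis was possible because there is no other group to pair with. The cause of these changes was not tested. Depth limits Psmb8, Psmb9 and Psmb11, each at 3 counts or fewer.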
